A study of Mus musculus with 54 samples.

Results

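The comparison is between the epididymal white adipose tissue (eWAT, the visceral fat pad beside the epididymis) of mice returned from a high-fat to a low-fat diet and that of mice kept on the high-fat diet. It covers every mature microRNA (miRNA) that passed a filter on low counts, 571 of the 1966 names in the deposited table, of which 1444 had at least 1 count in eWAT. All mice were wild-type C57BL/6 males of the F0 generation, fed chow up to 6 weeks of age, and tissue was taken at 24 weeks. HFLF mice ate the high-fat diet for 9 weeks and then the low-fat diet for 9 weeks. HF mice ate the high-fat diet for 18 weeks, and LF mice ate the low-fat diet for 18 weeks. LF libraries are shown for their levels and also entered the filter, the scaling and the estimate of spread. Each diet had 6 eWAT libraries. RNA came from tissue rather than sorted cells, so every value mixes fat cells with stromal, blood and immune cells, and fewer cells of a type cannot be told apart from less RNA per cell. The columns of the table carry the codes R, H and C, which the sources do not define and which were read as HFLF, HF and LF. Mice are numbered within each diet in the labels, which do not state that each number is a separate animal, and the p-values therefore measure only how far these samples spread.

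A miRNA is cut from a hairpin precursor as a duplex, and either strand, named 5p or 3p after its arm of the hairpin, can be loaded into an Argonaute protein. The loaded strand lowers the output of messenger RNAs that pair with its seed, the stretch of bases near its 5′ end, so miRNAs with the same seed share many targets. In fat, sets of miRNAs rise as precursors turn into adipocytes, others come with macrophages and other leukocytes that gather in obese fat, and others mark vessels, blood or stroma.

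The sequences below belong to the miRNAs on which the results turn, grouped by shared seed, and are taken from RefSeq for the mouse build GRCm38.p6. Capitals mark the seed, bases 2 to 8 counted from the 5′ end. The members of the miR-29 and miR-30 families listed here were higher in HFLF and share a seed within each family. The source held no sequence for miR-30b-5p, called higher, or miR-30d-5p, not called (log2 fold change 0.14).
miR-29a-3p: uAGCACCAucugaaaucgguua
miR-29b-3p: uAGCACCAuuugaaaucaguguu
miR-29c-3p: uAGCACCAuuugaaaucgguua
miR-30a-5p: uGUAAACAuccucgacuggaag
miR-30c-5p: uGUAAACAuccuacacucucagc
miR-30e-5p: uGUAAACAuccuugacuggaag
miR-203-3p: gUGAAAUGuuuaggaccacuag
miR-203b-3p: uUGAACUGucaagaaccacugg
miR-26a-5p: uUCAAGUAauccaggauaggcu
miR-103-3p: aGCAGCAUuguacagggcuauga
miR-451a: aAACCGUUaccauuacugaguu
Over 22 bases, miR-30a-5p and miR-30e-5p differ at 1 base and miR-29a-3p and miR-29c-3p at 1 base, both outside the seed. The miRNAs that were lower in HFLF include pairs that share a seed, miR-221-3p with miR-222-3p and miR-132-3p with miR-212-3p.
miR-342-3p: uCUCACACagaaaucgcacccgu
miR-221-3p: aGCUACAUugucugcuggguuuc
miR-222-3p: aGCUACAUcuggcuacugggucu
miR-146b-5p: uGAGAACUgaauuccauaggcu
miR-132-3p: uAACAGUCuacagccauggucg
miR-212-3p: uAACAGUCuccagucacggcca
miR-409-3p: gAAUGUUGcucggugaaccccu
miR-433-3p: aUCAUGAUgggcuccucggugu
miR-335-3p: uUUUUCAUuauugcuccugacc
In a further pair of families, miRNAs with the same seed moved in opposite directions. let-7g-5p and miR-195a-5p were higher in HFLF, and let-7e-5p and miR-15b-5p were lower.
let-7g-5p: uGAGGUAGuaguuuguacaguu
let-7e-5p: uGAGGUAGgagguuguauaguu
miR-195a-5p: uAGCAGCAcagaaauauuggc
miR-15b-5p: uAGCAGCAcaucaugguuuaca

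Total counts ran between 7745008 and 11166823 in HFLF, with 856 to 883 miRNAs detected, and between 7481038 and 10558863 in HF, with 849 to 917 detected. Abundance is given in CPM, counts per 1000000 counts of a library whose total was scaled by TMM (trimmed mean of M-values, edgeR), and 3 counts correspond to 0.274 to 0.376 CPM in HFLF and 0.239 to 0.361 CPM in HF. HF libraries varied more than HFLF libraries: the median SD of log2 CPM was 0.34 in HFLF and 0.48 in HF, and the SD was larger in HF for 411 of 571 miRNAs (72.0%). Library HF 3 stood at the far end of that spread, and HFLF 4 carried miRNAs of epithelium and epididymis at levels described last. Results that rest on either are given with and without it.

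In HFLF fat several leukocyte miRNAs, many miRNAs of the Dlk1-Dio3 cluster, and miR-221 and miR-222 were lower than in HF fat. Abundant adipocyte-enriched miRNAs, the miR-29 family and 4 of 5 miR-30 family 5p strands were higher. By edgeR's quasi-likelihood test with Benjamini-Hochberg adjustment, called below adjusted p = 0.05, 148 miRNAs differed (25.9% of those tested), 55 of them higher in HFLF (9.63%) and 93 lower (16.3%). In 56 of the tested miRNAs the groups did not overlap (9.81%): in 24 (4.20%) every HFLF library lay above every HF library, and in 32 (5.60%) below. The median log2 fold change of all 571 was -0.09. Counts of calls within a list below stand beside these shares over all miRNAs.

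The called rises and falls differed in size and abundance. Rises tended to be smaller and of more abundant miRNAs: 10 of 55 exceeded 2-fold. Of the 55, 22 had a mean over 1000 CPM, out of 66 such miRNAs among all tested. Falls tended to be larger and of scarcer miRNAs: 43 of 93 exceeded 2-fold and 4 had a mean over 1000 CPM. A mean under 10 CPM was found for 6 of the rises and 23 of the falls. The median of the mean abundance over the 12 libraries was 279.5 CPM for the rises and 29.3 CPM for the falls. Summed, the 55 took 39.7% to 44.6% of all CPM in HFLF against 24.1% to 37.7% in HF, and the 93 took 1.32% to 1.58% in HFLF against 2.22% to 5.05% in HF. These shares describe the called miRNAs and are no test of them.

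**Figure D1:**
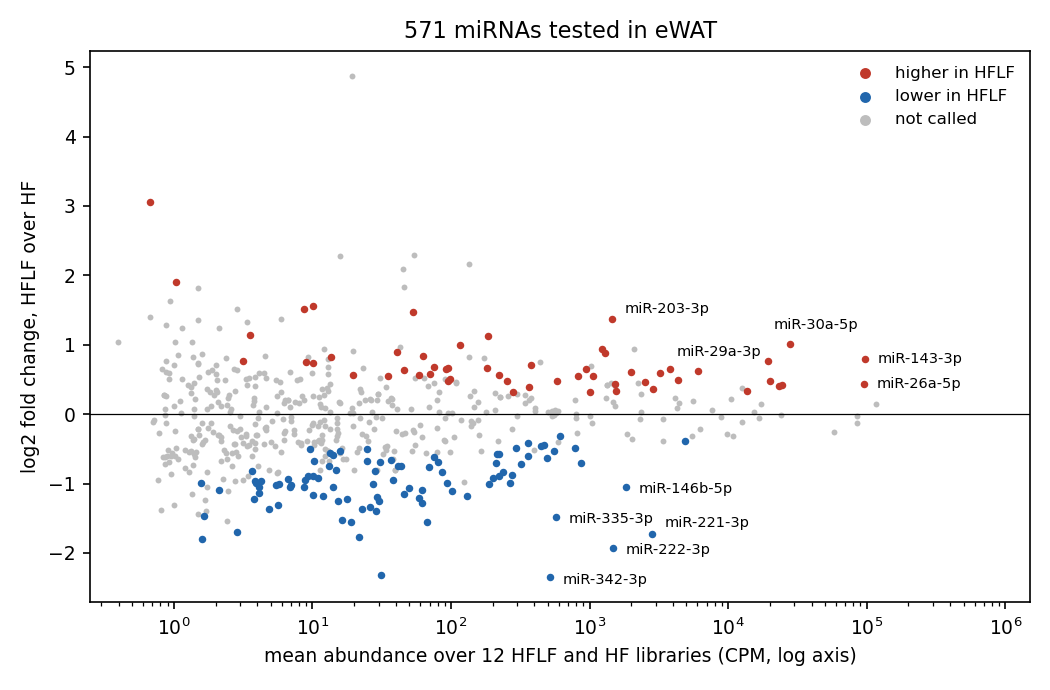
Log2 fold change of HFLF over HF (y axis) against mean abundance over the 12 libraries in CPM (x axis, log scale) for the 571 miRNAs tested, each a point; red and blue mark the 55 called higher and the 93 called lower in HFLF. The called rises include 22 miRNAs with a mean over 1000 CPM, the called falls 4.

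HF 3 lay at the far end of the HF group for most of the called miRNAs. Among the 93 falls HF 3 was the highest of the 6 HF libraries in 72 (77.4%), and among the 55 rises it was the lowest in 41 (74.5%). HF 5 lay nearest to HFLF, with the lowest HF value in 38 of the 93 falls and the highest HF value in 25 of the 55 rises. Among the 423 miRNAs not called HF 3 was highest in 85 and lowest in 85. Without HF 3, 24 miRNAs were higher and 67 lower, and 90 of these 91 were among the 148. Without HFLF 5, 28 were higher and 70 lower. The count of rises also fell by over 1.5 times without HFLF 1 (32), HFLF 2 (35) or HFLF 4 (33). Scaling set the balance of rises and falls: scaled by total counts, 25 miRNAs were higher and 138 lower, with a median log2 fold change of all miRNAs of -0.29. With the size factors of RLE (relative log expression), 68 were higher and 86 lower.

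Some leukocyte miRNAs were lower in HFLF. Of 13 tested members of the leukocyte and macrophage list 5 were lower and none higher, with a median log2 fold change of -0.49. Over all miRNAs 16.3% were lower, and the 5 calls include both strands of miR-342 and of miR-223. miR-342-3p, encoded in an intron of Evl and abundant in lymphoid and myeloid cells, had 110, 152 and 303 CPM in HFLF (the lowest, the median and the highest of the 6 libraries, as in all such triplets below) and 235, 737 and 2055 CPM in HF. The groups overlapped at HFLF 2, the highest HFLF library, and HF 5, the lowest HF library. The fall was 5.10-fold (adjusted p = 0.00202, log2 fold change -2.35 with SE 0.42), and its log2 size lay between -2.63 and -1.93 when any library was left out. LF fat held 83.1, 100.4 and 115 CPM. The other strand of the hairpin, miR-342-5p, had 6.77, 9.43 and 19.4 CPM in HFLF and 12.3, 44.6 and 122 CPM in HF (adjusted p = 0.00251, log2 fold change -2.32 with SE 0.46).

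miR-146b-5p, which dampens Toll-like receptor signalling, had 729, 1097 and 2085 CPM in HFLF and 1819.9, 2588 and 3354 CPM in HF. It changed by -1.05 on the log2 scale, with SE 0.23 (adjusted p = 0.00318). Its paralog miR-146a-5p, which has the same seed, averaged 501 ± 113 CPM in HFLF and 492.8 ± 147 CPM in HF (SD, n = 6 each; adjusted p = 0.926). Myeloid miR-223-3p had 378, 453 and 546 CPM in HFLF and 468, 695 and 800.1 CPM in HF (adjusted p = 0.00668, log2 fold change -0.53 with SE 0.13), and the strand miR-223-5p was called lower as well (-0.53). The 8 leukocyte miRNAs not called included macrophage miR-511-3p (log2 fold change -0.49; the other strand, miR-511-5p, which is not on the list, was called lower at -0.59), pan-leukocyte miR-142a-3p (-0.55) and inflammatory miR-155-5p (-0.39; adjusted p = 0.0509). The more abundant strand of the miR-142a hairpin, miR-142a-5p, was also not called, at a log2 fold change of 0.05. Its mean over the 12 libraries was 402 CPM, against 78.9 CPM for miR-142a-3p. Lymphoid miR-150-5p ran the other way, at 1270 ± 305 CPM in HFLF and 783 ± 374 CPM in HF (adjusted p = 0.0561). miR-147-3p, on the same list, did not pass the filter. The list's summed level was 48292 to 68595 CPM in HFLF and 47126 to 100820 CPM in HF, most of it miR-21a-5p, which averaged 52823 ± 6830.4 CPM in HFLF and 62913 ± 20094 CPM in HF (adjusted p = 0.261). The number of leukocyte falls was 8 without HF 5 and 9 with scaling by total counts, and 1 member was called higher with RLE scaling, with DESeq2, with the replicate number as a block, without HF 2 or without HFLF 3.

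miR-221 and miR-222, neighbours on chromosome X that repress the cell-cycle inhibitor Cdkn1b (p27), fell on both strands, 4 of 4 tested. miR-221-3p had 947, 1139 and 2031 CPM in HFLF and 1508, 3566 and 9325 CPM in HF. miR-222-3p had 470.2, 552 and 1046 CPM in HFLF and 803, 1897 and 5141 CPM in HF. The values of HFLF 2, the highest of its group in both, lay inside the HF range, and HF 3 was the highest of all. The falls were 3.30-fold for miR-221-3p (adjusted p = 0.00251, log2 fold change -1.72 with SE 0.35) and 3.81-fold for miR-222-3p (adjusted p = 0.00243, log2 fold change -1.93 with SE 0.38). The less abundant strands miR-221-5p and miR-222-5p had log2 fold changes of -1.55 and -1.53. All 4 kept their call when any library was left out, with the weakest value for miR-221-5p without HF 3 (-1.25, adjusted p = 0.0209). The hairpins lie at chrX:19146294-19146388 and chrX:19146893-19146971, on the minus strand and in no other annotated gene.

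miR-132 and miR-212, driven by the transcription factor CREB and encoded side by side on chromosome 11, were lower on all 4 strands. miR-132-3p had 54.4, 64.0 and 68.7 CPM in HFLF and 75.1, 112 and 183 CPM in HF, without overlap (adjusted p = 0.00202, log2 fold change -0.996 with SE 0.19). miR-212-5p had 5.34, 7.41 and 7.89 CPM in HFLF and 8.18, 12.1 and 18.8 CPM in HF, also without overlap (adjusted p = 0.00553, log2 fold change -0.89 with SE 0.21). The scarcer miR-132-5p and miR-212-3p changed by -0.95 and -0.83 on the log2 scale. The call of miR-212-3p ended without HF 3 (adjusted p = 0.0512). The p53 target miR-34a-5p had 174, 251 and 306 CPM in HFLF and 214, 361 and 446 CPM in HF (adjusted p = 0.0302, log2 fold change -0.49 with SE 0.16), and its call ended without HFLF 5 (adjusted p = 0.0526) or HF 2 (adjusted p = 0.0515).

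The largest block of falls was the imprinted Dlk1-Dio3 cluster on chromosome 12, whose miRNAs are expressed from the maternal chromosome. Of 47 tested members of the list 27 were lower and none higher, with a median log2 fold change of -0.99, and all 47 had a negative log2 fold change. From the first to the last listed hairpin, chr12:109571990-109743795, the annotation holds 39 hairpins with 55 tested strands, 31 of them lower and all 55 negative. This cluster accounted for most of the falls of its chromosome, on which 33 of 72 tested miRNAs were lower. Many members were scarce, and 6 of the 53 names on the list did not pass the filter. More abundant members are given here by their mean over the 12 libraries and log2 fold change, chosen after their values were seen. miR-379-5p (399 CPM, -0.51) and miR-411-5p (163 CPM, -0.54) were not called. miR-127-3p (275 CPM, -0.87) and miR-434-3p (199 CPM, -0.92) were called lower. miR-409-3p, a member with one of the smallest p-values, had 32.2, 35.9 and 40.2 CPM in HFLF and 57.6, 80.0 and 153 CPM in HF, without overlap (adjusted p = 0.00149, log2 fold change -1.27 with SE 0.21). LF fat had 31.0, 35.9 and 48.4 CPM.

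Other members of small p-value fell by amounts similar to that of miR-409-3p. miR-433-3p had 11.4, 14.7 and 18.5 CPM in HFLF and 21.0, 32.6 and 67.4 CPM in HF (adjusted p = 0.00202, log2 fold change -1.34 with SE 0.25). miR-431-5p had 10.1, 16.9 and 20.4 CPM in HFLF and 23.8, 37.3 and 75.2 CPM in HF (adjusted p = 0.00243, log2 fold change -1.39 with SE 0.27). miR-134-5p, known from neurons for its effect on dendritic spines, had 7.58, 10.2 and 14.04 CPM in HFLF and 16.9, 22.1 and 41.7 CPM in HF (log2 fold change -1.22). miR-485-3p had 10.5, 18.2 and 23.8 CPM in HFLF and 31.0, 37.5 and 70.4 CPM in HF (log2 fold change -1.25). In each of these the HFLF libraries lay below all HF libraries. That held for 9 of the 47 tested members of the list, beside 32 of all 571 miRNAs (5.60%). Summed over the list, the cluster had 1300 to 1813 CPM in HFLF and 1921 to 4304 CPM in HF, with no overlap, and 987.9 to 1952 CPM in LF. The 27 falls became 17 without HF 3, 17 where low counts were not filtered, and 14 without HF 3 and HF 5 together, a setting chosen after the data were seen. The scarcest called member, miR-380-3p, had 0, 0.663 and 1.30 CPM in HFLF, at or a few counts above 0, and 2.02, 2.05 and 4.43 CPM in HF (adjusted p = 0.0147).

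**Figure D2:**
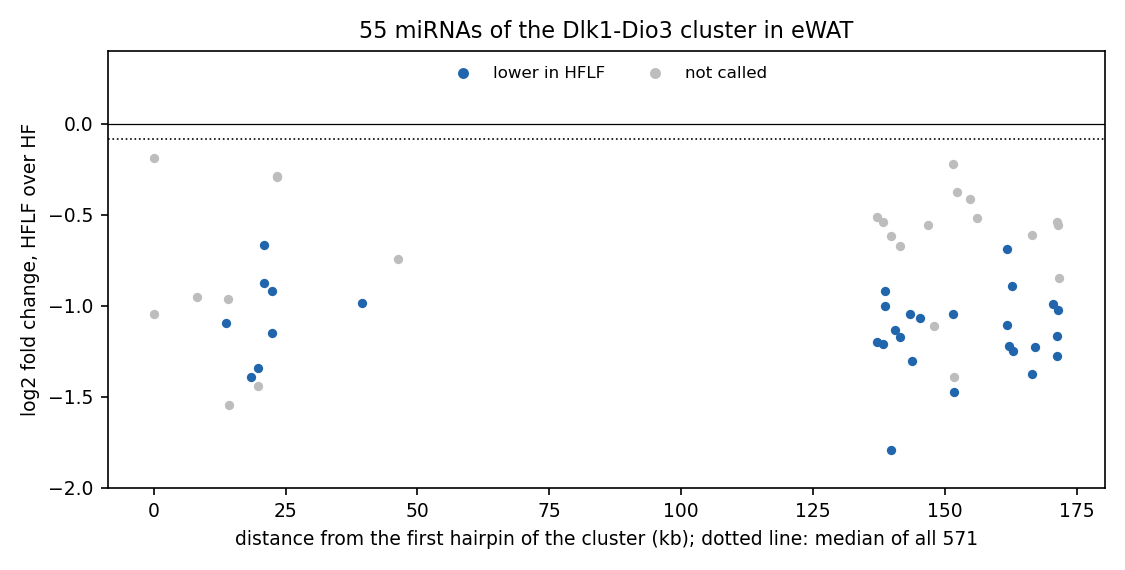
Log2 fold change of HFLF over HF (y axis) for the 55 tested miRNAs of the Dlk1-Dio3 cluster against the distance of their hairpin from the first hairpin, in kb (x axis); blue points are the 31 called lower and grey points those not called. All points lie below 0 and below the median of all miRNAs (dotted line), in the proximal and in the distal part of the cluster.

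miR-335, hosted by the imprinted gene Mest, whose level rises with fat expansion, changed on 1 strand only as far as calls go. miR-335-3p had 168, 323 and 422 CPM in HFLF and 414, 829.02 and 1241 CPM in HF (adjusted p = 0.00739, log2 fold change -1.48 with SE 0.37). The more abundant miR-335-5p had 1153, 1561 and 2609 CPM in HFLF and 1005, 2148 and 2790.3 CPM in HF (log2 fold change -0.28, adjusted p = 0.607). Within a library, log2 of the ratio of miR-335-3p to miR-335-5p was -2.48 ± 0.28 in HFLF and -1.30 ± 0.18 in HF (SD, n = 6 each), without overlap, and -2.43 ± 0.33 in LF. A ratio of this kind also parted the groups for strands of different loci that give the same main strand. miR-125b-1-3p over miR-125b-2-3p, the 3p strands of the 2 hairpins that give miR-125b-5p, had a log2 ratio of -1.10 ± 0.22 in HFLF and 0.16 ± 0.50 in HF, again without overlap. miR-125b-1-3p was called lower (-0.76) and miR-125b-2-3p higher (0.48), while miR-125b-5p itself averaged 24014 ± 2015 CPM in HFLF and 24301 ± 2674 CPM in HF (adjusted p = 0.903). The same held for miR-181a-1-3p (-0.50, lower) and miR-181a-2-3p (0.57, higher), whose log2 ratio was -0.17 ± 0.25 in HFLF and 0.90 ± 0.51 in HF. These ratios and strands were picked after the values were seen and carry no test.

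Among further falls of large size, miR-23b-5p, the minor strand of a hairpin whose main strand is miR-23b-3p, had 7.52, 9.65 and 11.6 CPM in HFLF and 9.82, 27.7 and 70.6 CPM in HF (adjusted p = 0.00251, log2 fold change -1.77 with SE 0.36). The main strand miR-23b-3p was not called (-0.39, adjusted p = 0.0965). miR-130b-5p had 6.76, 9.97 and 12.1 CPM in HFLF and 11.4, 24.7 and 49.6 CPM in HF (adjusted p = 0.00202, log2 fold change -1.56 with SE 0.29). In both, HF 5 was the HF library inside the HFLF range. By abundance the first 5 falls were let-7e-5p, miR-221-3p, miR-146b-5p, miR-222-3p and miR-3968, and miR-3968 had 463, 655 and 855 CPM in HFLF and 832, 1109 and 1345 CPM in HF (adjusted p = 0.00704, log2 fold change -0.70 with SE 0.17).

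Adipocyte-enriched miRNAs were higher in HFLF. Of 12 tested members of the list 9 were higher and none lower, all 12 had a positive log2 fold change, and the median was 0.54. Summed, they had 300499 to 387292 CPM in HFLF and 141577 to 273571 CPM in HF, without overlap, and 329293 to 547933 CPM in LF. Several of their p-values lay near the threshold, while miR-26a-5p, miR-30a-5p and miR-30c-5p kept their calls when any library was left out. The 9 rises became 3 without HF 3 or without HFLF 5. They became 4 or 5 without any of HF 1 and 4, HFLF 1 to 4 and LF 2, 4 and 5. The list had 3 rises with scaling by total counts, 5 with the replicate number as a block and 4 where low counts were not filtered.

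miR-26a-5p, which promotes adipocyte differentiation in human cells, had 100693, 111491 and 118468 CPM in HFLF and 62560.5, 84685 and 92681 CPM in HF, without overlap (adjusted p = 0.00287, log2 fold change 0.43 with SE 0.09). It kept its call when any library was left out. miR-143-3p, which supports adipocyte differentiation and is also rich in smooth muscle, had 76052, 126414 and 163898 CPM in HFLF and 35230.3, 74424 and 97125 CPM in HF (adjusted p = 0.0417, log2 fold change 0.80 with SE 0.28). Its call ended when any of 13 libraries was left out (HF 1, 2, 3, 4 and 6, HFLF 1 to 5, LF 2, 4 and 5), with adjusted p up to 0.118 without HF 3. miR-103-3p, encoded in introns of the pantothenate kinase genes Pank2 and Pank3 and known to impair insulin sensitivity in mice, had 24959, 27757 and 31019 CPM in HFLF and 14051, 21389 and 25572 CPM in HF (adjusted p = 0.0356, log2 fold change 0.41 with SE 0.14). Its call ended without any of 12 libraries (HF 1, 3 and 4, HFLF 1 to 6, LF 2, 4 and 5), with adjusted p up to 0.102 without HFLF 4. miR-148a-3p, which promotes adipogenesis, had 2363, 2821 and 3646 CPM in HFLF and 1492, 2265 and 2635 CPM in HF (adjusted p = 0.0192, log2 fold change 0.47 with SE 0.14), and was not called without HFLF 5 (adjusted p = 0.0867), HF 3, HF 2 or HFLF 4. miR-378a-3p, which sits in the coactivator gene Ppargc1b, had 3322, 3854 and 4544 CPM in HFLF and 1976, 2463 and 3331 CPM in HF (adjusted p = 0.0225, log2 fold change 0.59 with SE 0.18), and was not called without HF 3 (adjusted p = 0.0697), HFLF 5, HF 4 or HF 1. The related miR-378b, from another locus, had 48.1, 49.6 and 64.3 CPM in HFLF and 16.6, 29.2 and 43.7 CPM in HF (adjusted p = 0.0123, log2 fold change 0.89 with SE 0.24).

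The miR-30 family, whose members promote adipogenesis, rose in 4 of 5 tested 5p strands, with a median log2 fold change of 0.61. miR-30a-5p had 32506, 37243 and 41513 CPM in HFLF and 9321, 18376 and 28082 CPM in HF, without overlap, a 2.02-fold difference (adjusted p = 0.00225, log2 fold change 1.01 with SE 0.20). LF fat had 32132, 37703 and 54600.3 CPM. miR-30c-5p had 20665, 24008 and 31165 CPM in HFLF and 8084, 14499 and 21753 CPM in HF (adjusted p = 0.0100, log2 fold change 0.76 with SE 0.20), and HF 5 was the HF library inside the HFLF range. miR-30e-5p had 2129, 2356 and 2904 CPM in HFLF and 1085, 1536 and 1979 CPM in HF (adjusted p = 0.00501, log2 fold change 0.61 with SE 0.14). miR-30b-5p had 1026, 1236 and 1653 CPM in HFLF and 658, 804 and 1219.8 CPM in HF (log2 fold change 0.55), and lost its call without HF 3 (adjusted p = 0.0534). miR-30d-5p averaged 18116 ± 1378 CPM in HFLF and 16423 ± 1681 CPM in HF (adjusted p = 0.213). Of the opposite strands, miR-30a-3p had 1330.3, 1709 and 1876 CPM in HFLF and 499, 861 and 1321 CPM in HF (adjusted p = 0.00440, log2 fold change 0.88 with SE 0.20), and miR-30e-3p, miR-30d-3p and miR-30c-2-3p, chosen after their values were seen, were called higher at 0.66, 0.77 and 0.56, while miR-30b-3p (0.16) and miR-30c-1-3p (0.02) were not called. The family comes from several loci, and miR-30e with miR-30c-1 sits in an intron of Nfyc.

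The miR-29 family, which represses collagens and other matrix genes, rose in all 3 members without overlap. miR-29a-3p had 6762, 7379 and 7878 CPM in HFLF and 4014, 4685 and 5773 CPM in HF (adjusted p = 0.00149, log2 fold change 0.63 with SE 0.09). miR-29b-3p had 127, 146 and 198 CPM in HFLF and 52.6, 77.7 and 98.9 CPM in HF (adjusted p = 0.00149, log2 fold change 1.00 with SE 0.17). miR-29c-3p had 105, 117 and 128 CPM in HFLF and 56.8, 72.2 and 94.9 CPM in HF (adjusted p = 0.00614, log2 fold change 0.66 with SE 0.16). Every member kept its call whichever library was left out. In LF fat the medians were 7677 CPM for miR-29a-3p, 136.1 CPM for miR-29b-3p and 143.8 CPM for miR-29c-3p.

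**Figure D3:**
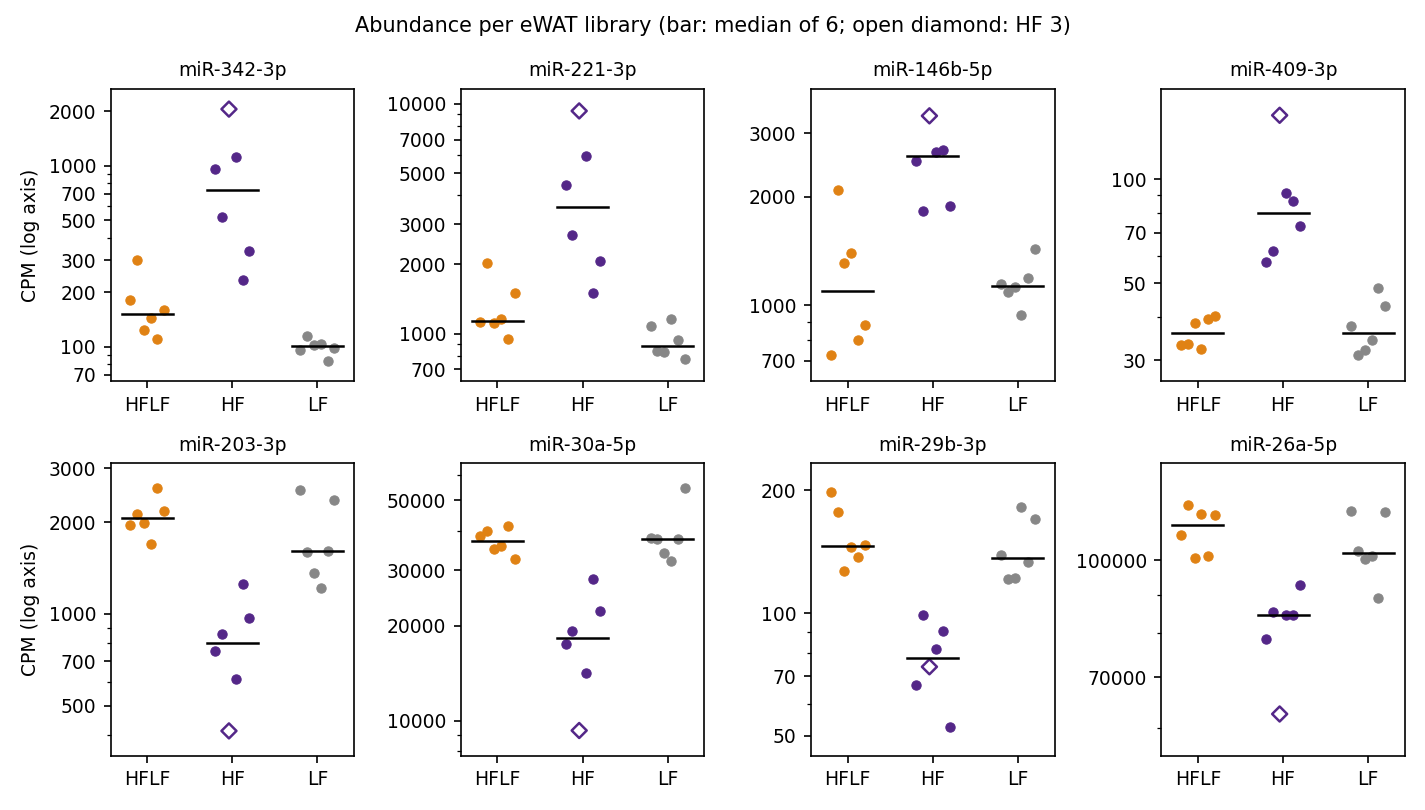
Abundance in CPM (y axis, log scale) of 8 miRNAs in each of the 18 eWAT libraries, grouped as HFLF, HF and LF (x axis); a point is a library, the bar is the median of 6, and the open diamond is HF 3. The HF medians are the highest in the upper row and the lowest in the lower row, and HF 3 is the extreme HF library in 7 of the 8 panels, all but miR-29b-3p.

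miR-203-3p, best known from epidermis where it restricts stem cell growth, had the largest rise among the called miRNAs with a mean above 100 CPM. It had 1698, 2056 and 2587 CPM in HFLF and 413, 805 and 1251 CPM in HF, without overlap (adjusted p = 0.00166, log2 fold change 1.37 with SE 0.23). miR-203b-3p, which RefSeq places on the opposite strand of the same site on chromosome 12 and which has a different seed, had 51.8, 72.5 and 122 CPM in HFLF and 12.8, 27.98 and 39.5 CPM in HF (adjusted p = 0.00251, log2 fold change 1.47 with SE 0.30). miR-203-3p is also on the list of brown and beige fat miRNAs. Of its 12 tested members 2 were higher and 3 lower (9.63% and 16.3% over all miRNAs), with a median log2 fold change of 0.52. The other rise was that of miR-193a-3p, at 3.89, 4.35 and 6.72 CPM in HFLF and 0.648, 2.12 and 3.73 CPM in HF (adjusted p = 0.0123, log2 fold change 1.14 with SE 0.31). The falls were those of miR-34a-5p, given above, and of both strands of miR-455, which promotes brown adipocyte differentiation. miR-455-3p had 99.4, 121 and 157 CPM in HFLF and 128, 244 and 400 CPM in HF (adjusted p = 0.00776, log2 fold change -1.005 with SE 0.25). The 3 falls became 1 without HFLF 5, without HF 3 and HF 5 together, without LF 4, LF 5 and HFLF 4 together, or with no filter on low counts.

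Among 9 miRNAs reported to hold back adipocyte differentiation 2 were higher and 2 lower, beside 9.63% and 16.3% over all miRNAs. The falls were those of miR-221-3p and miR-222-3p. miR-130a-3p, a repressor of Pparg, had 73.3, 77.7 and 87.6 CPM in HFLF and 27.7, 42.6 and 70.4 CPM in HF, without overlap (adjusted p = 0.0101, log2 fold change 0.83 with SE 0.22). miR-27a-3p, which also targets Pparg, had 2701, 3223 and 3881 CPM in HFLF and 2164, 2472 and 2940.3 CPM in HF (adjusted p = 0.0287, log2 fold change 0.36 with SE 0.11). The call of miR-27a-3p ended without any of HF 1, 2, 3, 5 and 6, HFLF 1, 2, 3, 5 and 6 and LF 5, with adjusted p up to 0.108 without HFLF 2. The miR-23, miR-27 and miR-24 clusters held this 1 rise among 7 tested strands, with a median of -0.04. Of 10 tested regulators of cholesterol and lipid metabolism 4 were higher and 1, miR-128-3p, was lower (-0.45), with a median of 0.39. The 4 rises were those of miR-378a-3p, miR-148a-3p, miR-27a-3p and miR-106b-5p (0.32). The list had no rise without HF 3, without HFLF 5 or with scaling by total counts. It had 1 without HF 2, without HF 3 and HF 5 together or where low counts were not filtered. It had 2 without HF 1, LF 5, HFLF 1, HFLF 2, HFLF 3, HFLF 4 or HFLF 6, and 3 without HF 4 or HF 6. Outside the lists, and chosen after their values were seen, miR-101a-3p, miR-101b-3p and miR-101c were called higher, at 0.66, 0.43 and 0.64. miR-5615-5p, at 0 to 2.07 CPM in HFLF and 0 to 0.451 CPM in HF, was also called higher (adjusted p = 0.0209; 0.0534 without HF 3), and with HF at or near the level of 3 counts no fold is given.

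**Figure D4:**
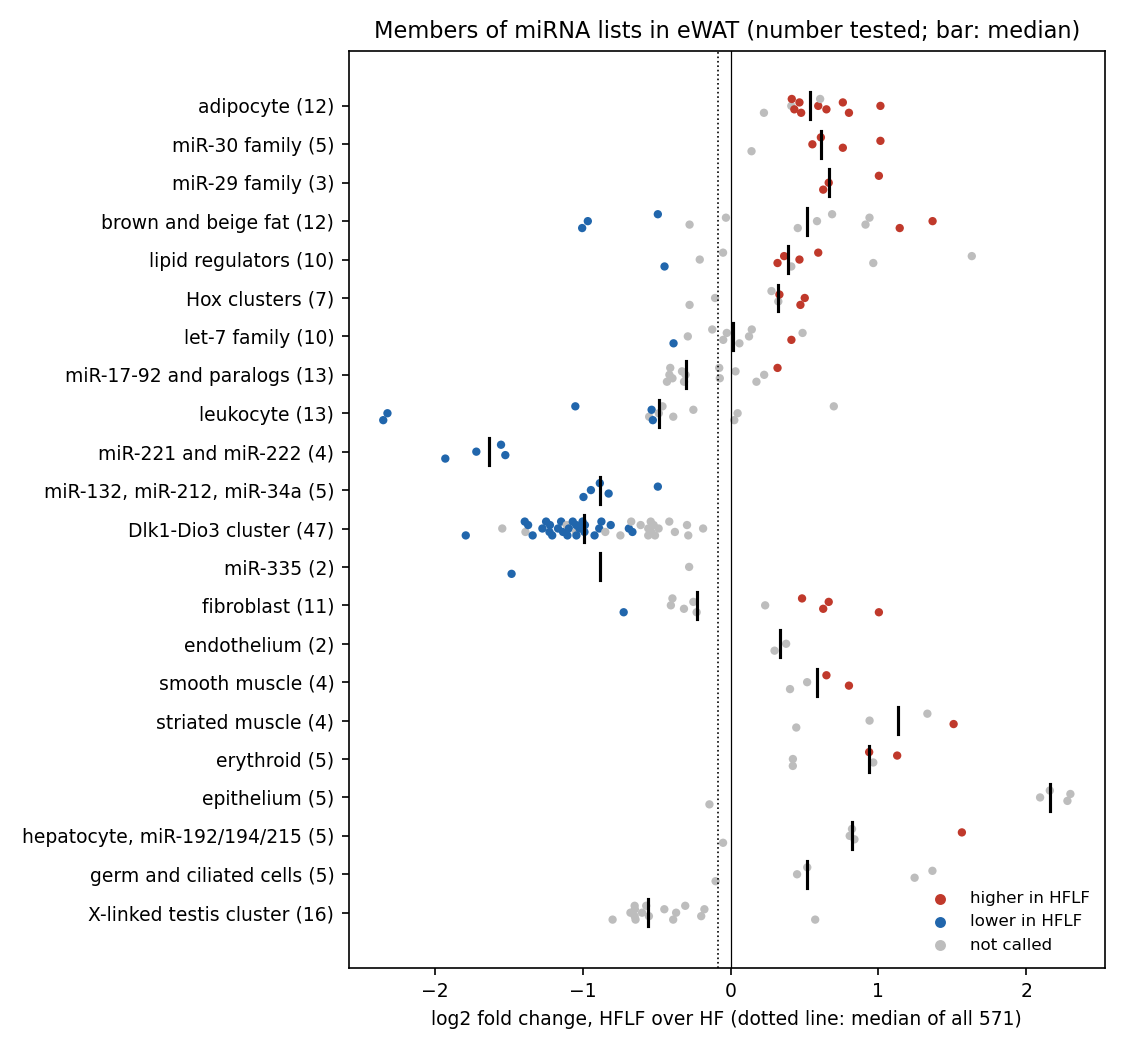
Log2 fold change of HFLF over HF (x axis) for the tested members of 22 miRNA lists (y axis, number tested in brackets); a point is a miRNA, coloured by its call, the black bar is the median of the list and the dotted line the median of all 571. Adipocyte, miR-30 and miR-29 members lie to the right, and miR-221 and miR-222, miR-132 and miR-212 and the Dlk1-Dio3 cluster to the left.

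Of the 10 most abundant miRNAs 5 were called higher (miR-143-3p, miR-26a-5p, miR-30a-5p, miR-103-3p and let-7g-5p) and 5 were not called. let-7f-5p, the most abundant, averaged 123219 ± 5577 CPM in HFLF and 111572 ± 8559.9 CPM in HF (adjusted p = 0.251), and let-7c-5p averaged 83673 ± 7654 CPM in HFLF and 85194 ± 12846 CPM in HF (adjusted p = 0.867). The sign of both depended on the scaling. Of the 10 let-7 family members, which share a seed and restrain growth and insulin signalling genes, 1 was higher and 1 lower, with a median of 0.02. let-7g-5p had 25519.5, 26809 and 27650.4 CPM in HFLF and 16285, 20498 and 23260.5 CPM in HF, without overlap (adjusted p = 0.00501, log2 fold change 0.41 with SE 0.09). let-7e-5p had 3816, 4291 and 4709 CPM in HFLF and 4929, 5241 and 6940.3 CPM in HF, without overlap in the other direction (adjusted p = 0.0102, log2 fold change -0.39 with SE 0.10). These 2 differ at 3 bases, all outside the seed. let-7d-5p, at -0.29 with adjusted p = 0.0595, was called lower when any of LF 1, 2, 4 and 5, HF 1 and 5 and HFLF 3, 4 and 6 was left out, the lowest adjusted p being 0.0166 without HF 1.

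Among the miRNAs with a sequence, opposite calls within a seed group occurred in 1 further family. In the miR-15 and miR-16 family, which targets cyclins and Bcl2, miR-195a-5p had 843, 920 and 1279.8 CPM in HFLF and 516, 685 and 783 CPM in HF (adjusted p = 0.00704, log2 fold change 0.55 with SE 0.14). miR-15b-5p had 487, 562 and 587 CPM in HFLF and 590.3, 692 and 749 CPM in HF (adjusted p = 0.0118, log2 fold change -0.32 with SE 0.08). Neither overlapped, and miR-16-5p, the most abundant of the 6 tested, was not called (0.19). Among the 478 tested miRNAs with a RefSeq sequence, 52 groups shared a seed, and 11 of these had at least 2 calls. Of the 11, 6 had rises only, 3 falls only and 2 both. Tested miRNAs without a sequence, miR-30b-5p and miR-30d-5p among them, entered no group. Of 154 hairpins with both strands tested, 4 had both higher, 18 both lower and none had opposite calls.

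Of the miRNAs of the Hox clusters, which keep positional identity, 3 of 7 were higher. miR-10b-5p had 21204, 24036 and 25223 CPM in HFLF and 13908, 16268 and 20003 CPM in HF, without overlap (adjusted p = 0.00288, log2 fold change 0.47 with SE 0.10). miR-10a-5p (0.33) lost its call without HFLF 4, HF 3 or HFLF 5 (adjusted p up to 0.0643), and miR-10b-3p (0.50) without HFLF 1, 2, 4 or 5 or HF 1, 2 or 3 (adjusted p up to 0.0788). In the clusters of miR-99, let-7 and miR-125, 1 of 7 was higher, miR-99a-5p (adjusted p = 0.00782, log2 fold change 0.50 with SE 0.13), and 1 lower, let-7e-5p. Of 13 tested members of miR-17-92 and its paralogs only miR-106b-5p was called, and its call ended without 16 of the 18 libraries, HF 5 and LF 6 being the exceptions (adjusted p up to 0.179 without HFLF 4).

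The fat pad also holds blood, stromal, vascular and muscle cells, whose lists are short. In the erythroid list 2 of 5 were higher: miR-451a, which is matured by Ago2 without Dicer, had 1308, 1579.7 and 2103 CPM in HFLF and 345, 891 and 1148 CPM in HF (adjusted p = 0.00572, log2 fold change 0.94 with SE 0.22), and its neighbour miR-144-5p had 199.5, 254 and 337 CPM in HFLF and 40.2, 117 and 170.3 CPM in HF (adjusted p = 0.00784, log2 fold change 1.13 with SE 0.29). Both were without overlap, all 5 members were positive, and the list summed to 4007 to 6629 CPM in HFLF and 1536 to 4919 CPM in HF. In the fibroblast and stellate cell list 4 of 11 were higher, the 3 miR-29 members and miR-218-5p (0.48), and 1 was lower, miR-214-3p, with 191, 233 and 323 CPM in HFLF and 266, 390.4 and 583 CPM in HF (adjusted p = 0.0179, log2 fold change -0.72 with SE 0.21). The summed fibroblast list overlapped, at 62900.3 to 85873 CPM in HFLF and 57693 to 110172 CPM in HF. Of 4 smooth muscle miRNAs, miR-143-3p and miR-145a-5p (0.65) were higher, and neither was called without HF 3 (adjusted p = 0.118 and 0.141); miR-145a-5p kept its call only without HF 5 or LF 3. Neither of the endothelial strands was called: miR-126a-3p averaged 14196 ± 1295 CPM in HFLF and 10941 ± 2455 CPM in HF (adjusted p = 0.108). Of 4 striated muscle miRNAs miR-499-5p was higher (8.01, 13.9 and 15.8 CPM in HFLF, 1.05, 4.42 and 8.42 CPM in HF; adjusted p = 0.0433), a call that ended without any of HF 1, 3 and 4, HFLF 1 to 6 and LF 1 and 2 (adjusted p up to 0.0973). Whether the share of these cell types in the fat pad moved with the other results was not tested.

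miRNAs of epithelium, epididymis and testis marked single libraries. miR-200b-3p was at 1066 CPM in HFLF 4, while the median was 55.5 CPM in HFLF and 47.3 CPM in HF. The epithelial list summed to 73.8 to 2006 CPM in HFLF and 78.3 to 144.4 CPM in HF, none of its 5 tested members was called, and its median log2 fold change was 2.16. Without HFLF 4 the log2 fold change was 0.43 for miR-200a-3p, 0.0217 for miR-200b-3p, -0.19 for miR-429-3p and -0.79 for miR-200c-3p. None of the 5 germ and ciliated cell miRNAs and none of the 16 tested miRNAs of the X-linked testis cluster was called. Of the testis cluster, miR-465a-3p was at 123 CPM in HF 1, while its median was 10.5 CPM in HFLF and 6.87 CPM in HF. The HNF-driven miR-215-5p was called higher, with 6.64, 12.4 and 31.6 CPM in HFLF and 1.30, 4.19 and 10.8 CPM in HF (adjusted p = 0.0356, log2 fold change 1.57 with SE 0.52), but not without HFLF 4 (log2 fold change 1.16, adjusted p = 0.109), HF 3, HF 4, HFLF 5, HF 1, HFLF 1 or HF 5. Neither of 2 tested miR-183 cluster members was called. Without LF 4, LF 5 and HFLF 4, the 3 libraries highest in epithelial miRNAs, 35 miRNAs were higher and 83 lower, 110 of these 118 among the 148.

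The change was then compared with that in liver of the same diets with both tables in 1 edgeR fit, testing the diet by tissue term, which is (eWAT HFLF over HF) minus (liver HFLF over HF). Of 595 miRNAs tested, 57 differed (9.58%), 37 with a more positive change in eWAT (6.22%) and 20 with a more negative one (3.36%). The filter was run on both tissues together, while 422 miRNAs pass it in liver alone. Some of the 595 were thus scarce in liver, where a change rests on few counts, and liver levels are not given here. Of 27 named miRNAs 17 differed, but these were chosen for the largest changes or highest abundance among the eWAT calls in the same libraries, so the 17 are not read against the share over all miRNAs. miR-342-3p changed by -2.26 in eWAT and -0.16 in liver in this fit (difference -2.10, adjusted p = 0.00287), and miR-221-3p by -1.64 in eWAT and 0.03 in liver (difference -1.66, adjusted p = 0.00561). miR-30a-5p changed by 1.07 in eWAT and 0.02 in liver (difference 1.05, adjusted p = 0.00782), miR-29b-3p by 1.06 in eWAT and -0.11 in liver (difference 1.18, adjusted p = 0.00261), and miR-203-3p by 1.42 in eWAT and 0.12 in liver (difference 1.31, adjusted p = 0.00343). let-7e-5p ran in opposite directions, -0.33 in eWAT and 0.49 in liver (difference -0.82, adjusted p = 0.00343), with neither change called on its own in this fit (adjusted p = 0.0566 in eWAT and 0.0557 in liver). For miR-26a-5p, miR-143-3p, miR-146b-5p, miR-335-3p, miR-431-5p, miR-130a-3p, miR-130b-5p, miR-215-5p, miR-222-5p and miR-3968 the difference between tissues did not pass the test. The difference lost its call for let-7g-5p without HF 3 of eWAT (adjusted p = 0.0505), for miR-221-5p without HF 3 or HF 4 of eWAT (up to 0.0867), for miR-451a without any of 11 libraries (up to 0.0837), for miR-30a-3p without any of 15 (up to 0.0736) and for miR-144-5p without any of 16 (up to 0.0969). A block of diet and replicate number, which the labels share between eWAT and liver, ended the call for miR-342-5p (adjusted p = 0.0521), miR-221-5p (0.155) and let-7g-5p (0.0755). Scaling by total counts ended the call for miR-103-3p (0.0725), miR-144-5p (0.0772), miR-451a (0.0779) and miR-30a-3p (0.0521). Of the 17, 10 kept their call under every alternative run. The 57 became 33 without HF 3 and 37 without HFLF 5 of eWAT. The 37 more positive changes became 17 without HF 3, 21 without HFLF 5, and 24 without HF 4 or HFLF 1 of eWAT or HF 2 or HFLF 5 of liver, and 11 with scaling by total counts, beside 28 more negative ones.

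**Figure D5:**
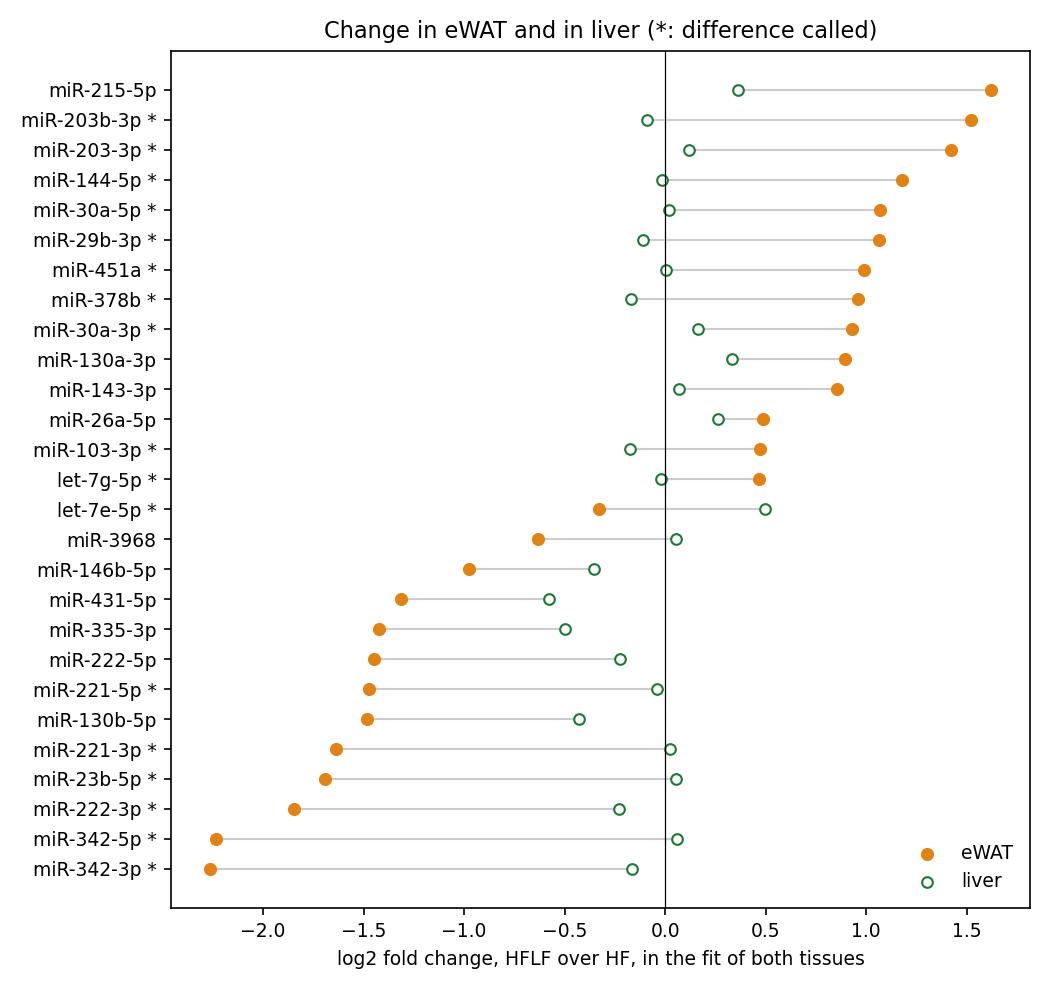
Log2 fold change of HFLF over HF (x axis) in eWAT (filled orange) and in liver (open green) for 27 miRNAs (y axis), from 1 fit of both tissues; an asterisk marks the 17 whose change differs between the tissues at adjusted p below 0.05. The eWAT values reach -2.26 and 1.62, and the liver values of the 17 lie between -0.23 and 0.49.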

How the data were processed

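Small RNA libraries were made from eWAT and liver with a NEXTFLEX kit, per the labels' protocols. The submitters' processing notes name cutadapt, Bowtie and GRCm38.p6; which miRNA reference and which counting program were used is not given in the sources used here. The deposited tables hold raw counts per mature miRNA, and 18 columns of F1 sperm were not used. The protocol text prints one diet as "HLD", read here as the high-fat diet.

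The 18 eWAT libraries entered 1 fit of edgeR 4.0.16 (R 4.3.3) with diet as the term, after filterByExpr and TMM scaling. HFLF was tested against HF by the 2-sided quasi-likelihood test with Benjamini-Hochberg adjustment over the 571 miRNAs. log2 CPM used a prior count of 2. Filtered names held little: 99.99% of the counts lay in the tested miRNAs. The interaction with tissue used 36 libraries and 595 miRNAs, and took eWAT and liver libraries as separate samples.

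Named miRNAs were the 10 largest called changes each way at a mean of at least 10 CPM and the 5 most abundant calls each way. To these came the 10 most abundant miRNAs, the largest called change each way below 10 CPM, and the 4 of smallest p in each list. Other miRNAs given beside them, such as further list members and opposite strands, were not picked by this rule. Only some of those are marked as chosen after their values were seen. The members and lists were chosen with earlier results of these data known. On simulated counts for HFLF against HF, 90.9% of 4-fold, 53.7% of 2-fold and 20.9% of 1.5-fold changes were recovered, with 3 false calls among 113. The simulation gave each miRNA the same spread in all diets and set no library apart. The wider HF group and HF 3 are not part of it, so it cannot give the rate of false calls in these data. Alternatives were RLE and total-count scaling, DESeq2 1.42.0, no filter, a higher abundance minimum, HFLF and HF alone, a replicate block, and libraries left out. Host genes are from GENCODE M21 and sequences from RefSeq, which held 478 of the 571.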

Additional observations from a re-analysis of the deposited data

Results flagged for a closer look

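In 14 of 208 groups of 6 libraries examined, the highest or lowest library lay apart from the others by Dixon's gap test; chance gives about 1 in 20. HFLF 4 was the highest HFLF library for 9 of these, all miRNAs of epithelium, epididymis or gut: miR-200a-3p at 410.9 CPM, miR-200b-3p at 1066 CPM, miR-429-3p at 133.5 CPM, miR-200c-3p at 385.4 CPM, miR-194-5p at 418.1 CPM, miR-192-5p at 410.8 CPM, miR-34c-5p at 310.2 CPM, miR-182-5p at 78.5 CPM and miR-183-5p at 39.0 CPM. HF 1 was the highest HF library for miR-200c-3p (46.5 CPM) and miR-34b-3p (79.8 CPM). None of these 10 miRNAs was called between HFLF and HF. HFLF 2 was the highest HFLF library for miR-222-3p (1046 CPM) and the lowest for miR-5615-5p (0 CPM), and HF 3 was the highest HF library for miR-380-3p (4.43 CPM).

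The change with diet differed between eWAT and liver, by the interaction term in edgeR, for 17 of the 27 miRNAs examined, which were chosen for their size or abundance among the eWAT calls of the same libraries. Over all miRNAs tested 57 of 595 differed (9.58%), and 10 of the 17 kept their call under every alternative run. The difference of the log2 fold changes, eWAT minus liver, was negative for miR-342-5p (-2.30), miR-342-3p (-2.10), miR-23b-5p (-1.74), miR-221-3p (-1.66), miR-222-3p (-1.62), miR-221-5p (-1.43) and let-7e-5p (-0.82). It was positive for miR-203b-3p (1.61), miR-203-3p (1.31), miR-144-5p (1.195), miR-29b-3p (1.18), miR-378b (1.13), miR-30a-5p (1.05), miR-451a (0.99), miR-30a-3p (0.77), miR-103-3p (0.65) and let-7g-5p (0.49).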

How the results depend on the processing

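Of the 60 named miRNAs that were called, 45 kept their call whichever library was left out and 42 under every alternative. The 148 calls (55 higher, 93 lower) became 154 with RLE scaling, 163 with total counts (25 higher), 167 with DESeq2, 89 with no filter (27 higher), 142 with HFLF and HF alone, 134 at a mean of at least 10 CPM, 118 without LF 4, LF 5 and HFLF 4 (35 higher), and 104 without HF 3 and HF 5, a setting chosen after seeing the data. With the replicate number as a block 130 were called (51 higher, 79 lower). Deviations of log2 CPM from the group means correlated between -0.70 and 0.25 for same-numbered HFLF and HF libraries of eWAT. The number was therefore not taken as a pairing across diets. Leaving out 1 library gave 91 to 160 calls, 24 to 61 higher and 67 to 112 lower. The 57 differences between tissues (37 higher, 20 lower in eWAT) became 66 with RLE scaling (31 lower), 39 with total counts (11 higher), 84 with DESeq2 (43 lower), 25 with no filter (11 higher), 34 with the replicate block (23 higher, 11 lower), and 33 to 69 without 1 library (17 to 41 higher, 15 to 28 lower). In the fit of both tissues the block was diet and number together, since the labels number mice alike in eWAT and liver. Whether eWAT and liver libraries of the same diet and number came from the same mouse is not stated. Their deviations from the group means correlated between -0.04 and 0.10 in HFLF and HF. The cause of these shifts was not tested.

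Among the 104 named miRNAs, those whose log2 fold change turned sign were called neither by the test as reported nor under the setting that turned it. let-7c-5p was at 0.0273 with RLE scaling or DESeq2, and between -0.111 and 0.0405 without 1 library (highest without HF 6). miR-125b-5p was at 0.0356 with RLE scaling or DESeq2, 0.00682 with HFLF and HF alone, and between -0.0884 and 0.0056 without 1 library (highest without HF 4). With total counts let-7f-5p was at -0.0554 and miR-16-5p at -0.0232. With the replicate block miR-200c-3p was at -0.12, miR-183-5p at -0.0422, miR-465a-3p at 0.93, miR-741-3p at 0.75, miR-470-5p at 0.77 and miR-871-3p at 1.05. Without 1 library miR-465a-3p lay between -1.54 and 1.38, miR-741-3p between -1.42 and 1.33, miR-470-5p between -1.29 and 1.27, and miR-871-3p between -1.27 and 1.51, each highest without HF 1. Those lowest without HFLF 4 were miR-429-3p (-0.19 to 2.48), miR-200c-3p (-0.79 to 2.67), miR-34b-5p (-0.28 to 1.62), miR-34b-3p (-0.47 to 1.32), miR-34c-5p (-0.65 to 1.34) and miR-183-5p (-0.34 to 0.74). Without LF 4, LF 5 and HFLF 4 these 6 were at -0.16, -0.75, -0.27, -0.44, -0.61 and -0.31.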
